A study of Mus musculus with 9 samples.

Results

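Chromosomal DNA is copied once per cell cycle by proteins whose genes are switched on together at the G1 to S transition. E2F transcription factors activate these genes once cyclin-dependent kinases have released them from the retinoblastoma family of pocket proteins. The described group is a list of 43 such genes, chosen by symbol: origin licensing factors, the MCM helicase, helicase activators, DNA polymerases and primase, the sliding clamp with its loader, enzymes of nucleotide supply, chromatin assembly factors, and E2F factors with the cyclin E genes and Cdc25a. Of these, 41 had a probe set of their own among the 22180 genes named on the array, and all 41 passed the filter that left out the 30% of genes with the lowest mean. The other 2, Rfc4 and Ccne2, are read only by probe sets annotated to several genes, and no value is given for them.

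The samples were MYCCaP cells, a mouse prostate cancer line from a tumour driven by a MYC transgene under the androgen-responsive probasin promoter. Expression was read from total RNA on 9 arrays of the Affymetrix Mouse Gene 2.0 ST design. The first group held 3 lines from tumours of castrated mice given AZD1208, an inhibitor of the PIM kinases, and the second held 3 lines from castrated mice given vehicle. Lines of both groups were labelled as grown without dihydrotestosterone (DHT) and as biological replicates, and the sources used here do not say whether each came from its own mouse. The reference was the parental MYCCaP line grown with DHT, hybridised to 3 arrays labelled technical replicates, which were averaged and counted as 1 sample. The 6 AZD1208 and vehicle lines are together called recurrent. Recurrent lines differ from the parental line in DHT and in passage through a castrated mouse, and these cannot be told apart here.

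Values are log2 intensities as deposited, so a difference of 1 is a doubling, and levels are not compared between genes. Array medians lay between 6.22 and 6.36. AZD1208 3 had the narrowest interquartile range over genes, 2.89 against 3.11 to 3.43 in the other arrays, and the lowest array quality weight, 0.34. Of the epithelial markers checked, Krt8 averaged 9.25 ± 0.80 over the recurrent lines (SD, n = 6), against 9.19 for the parental cells. Cdh1 averaged 6.76 ± 0.18 over the recurrent lines (SD, n = 6), a difference of -0.24 from the parental cells. Epcam, at 4.88 ± 0.20 over the recurrent lines (SD, n = 6) and 4.99 for the parental cells, was below the filter on dim genes.

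Promoters are shown for the members with the smallest unadjusted p between recurrent and parental cells, 1 for each of 6 role groups. They are given because the list is one of DNA replication and E2F target genes, and its members mostly lay below the parental level. Each window runs from 250 bases before to 50 bases after the gene's start, 5′ to 3′ on the gene's strand, from RefSeq on GRCm38.p6. Capitals mark matches to TTTCCCGC or TTTGGCGC, 2 forms of the E2F site, or to their reverse complements GCGGGAAA and GCGCCAAA. The windows are chr16:93883651-93883950 (+) for Chaf1b, chr12:24708004-24708303 (+) for Rrm2, chr11:98907901-98908200 (+) for Cdc6, chr19:10204344-10204643 (-) for Fen1, chr1:20820263-20820562 (-) for Mcm3 and chr2:5012742-5013041 (-) for Mcm10.
Chaf1b: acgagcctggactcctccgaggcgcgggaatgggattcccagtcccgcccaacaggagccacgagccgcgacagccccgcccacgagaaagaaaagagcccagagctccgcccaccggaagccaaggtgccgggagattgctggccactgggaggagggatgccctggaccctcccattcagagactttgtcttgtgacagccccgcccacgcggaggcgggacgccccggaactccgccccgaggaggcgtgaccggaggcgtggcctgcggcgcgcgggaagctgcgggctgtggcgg
Rrm2: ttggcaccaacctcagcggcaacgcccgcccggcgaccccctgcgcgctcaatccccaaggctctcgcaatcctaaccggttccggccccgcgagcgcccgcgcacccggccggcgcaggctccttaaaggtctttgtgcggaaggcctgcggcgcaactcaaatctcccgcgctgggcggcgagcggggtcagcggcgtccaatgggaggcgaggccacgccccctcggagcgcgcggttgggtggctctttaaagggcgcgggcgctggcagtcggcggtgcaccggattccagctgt
Cdc6: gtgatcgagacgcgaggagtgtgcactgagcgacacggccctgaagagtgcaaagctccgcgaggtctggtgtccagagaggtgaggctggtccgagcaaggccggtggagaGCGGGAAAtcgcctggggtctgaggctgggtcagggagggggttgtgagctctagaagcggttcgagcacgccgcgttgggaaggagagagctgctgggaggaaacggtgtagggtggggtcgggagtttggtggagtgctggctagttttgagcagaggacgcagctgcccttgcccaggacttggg
Fen1: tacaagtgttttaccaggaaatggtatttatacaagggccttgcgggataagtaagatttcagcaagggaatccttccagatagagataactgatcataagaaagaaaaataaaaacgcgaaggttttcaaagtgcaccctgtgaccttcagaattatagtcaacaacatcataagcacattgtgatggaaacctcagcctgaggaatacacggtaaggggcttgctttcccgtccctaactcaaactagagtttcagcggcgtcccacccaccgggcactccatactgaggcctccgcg
Mcm3: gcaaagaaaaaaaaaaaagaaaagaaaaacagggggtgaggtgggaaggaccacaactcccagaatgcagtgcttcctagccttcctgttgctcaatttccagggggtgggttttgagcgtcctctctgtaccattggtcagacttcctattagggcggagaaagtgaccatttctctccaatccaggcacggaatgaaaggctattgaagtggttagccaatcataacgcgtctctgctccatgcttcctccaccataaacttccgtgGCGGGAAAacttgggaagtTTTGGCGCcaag
Mcm10: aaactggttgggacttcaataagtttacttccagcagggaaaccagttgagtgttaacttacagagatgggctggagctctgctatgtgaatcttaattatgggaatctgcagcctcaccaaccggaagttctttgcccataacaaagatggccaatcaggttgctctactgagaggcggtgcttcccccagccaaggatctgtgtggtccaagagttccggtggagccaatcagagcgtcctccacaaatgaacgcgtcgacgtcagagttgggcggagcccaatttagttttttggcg

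The Cdc6 match began 138 bases before the start, and the 2 matches in Mcm3 began at positions 20 and 39 of the transcript. The windows shown for Chaf1b, Rrm2, Fen1 and Mcm10 held neither form, which says only that these letters are not in them. RefSeq windows were at hand for 34 of the 41 members, and 12 of the 34 (35.3%) held a match: Cdc6, Cdt1, Mcm3, Mcm5, Mcm6, Mcm7, Gins3, Pola1, Pold1, Rfc3, E2f2 and Cdc25a. Among 12126 tested genes with a window 3% held one, as did 1.56% of all 32851 windows. The list was drawn up as one of DNA replication and E2F target genes, so this share describes the list and tests nothing. Recurrent minus parental differences had a median of -0.43 over the 12 members with a match and -0.50 over the 22 without, and the ranges (-0.93 to -0.0012 and -0.88 to 0.18) overlapped.

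The first comparison set recurrent against parental cells, and asked how the replication programme of lines from castrated mice stands to that of the androgen-grown parent. Replication genes were mostly lower in the recurrent lines. The mean difference was below 0 for 38 of 41 members, against 54.7% of all genes tested, and its median over the members was -0.43, against -0.02 over all 15526 genes. All 6 lines lay below the parental mean for 27 members, where 10.9% of all genes tested did, and below every parental array for 19 members, where 5.09% did. No member lay above the parental mean in all 6 lines, against 11.8% of all genes.

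None of these differences passed the test. Limma, with Benjamini-Hochberg adjustment over 15526 genes, called 0 genes (0%) and 0 members, and every member had adjusted p = 1. At an unadjusted p under 0.05 there was 1 member with a lower level, Chaf1b, where 0.754% of all genes were lower at that threshold, and there was none with a higher level, where 2% were higher. That count of lower members was 7 without vehicle 1, 4 without vehicle 3, and 6 with the replicate block or with array quality weights. The share of all genes past that threshold under those settings is not given here, so the change cannot be read as particular to the members. The parental side is a single sample whose biological spread was not measured, and the SE of a member's difference lay between 0.21 and 0.85. With the replicate number of the lines as a block 2 genes passed, neither a member. In these bulk samples fewer cells in S phase and less RNA of these genes per cell cannot be told apart.

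**Figure D1:**
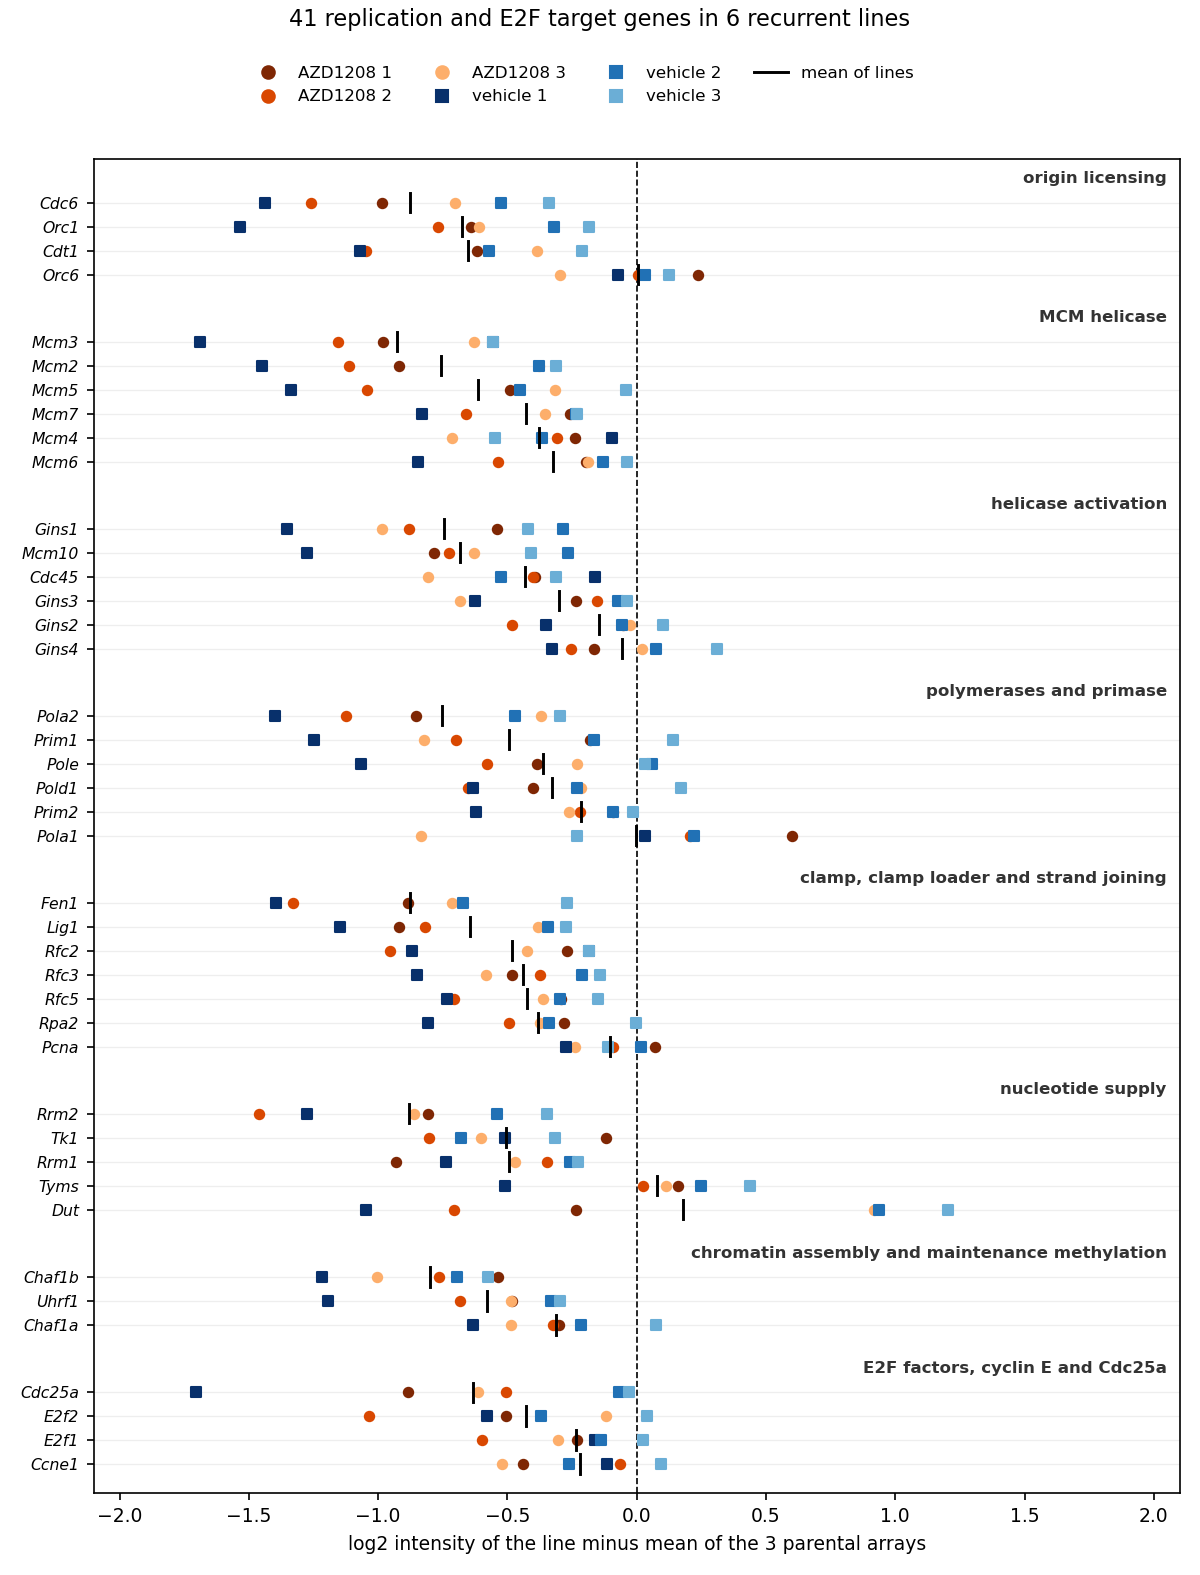
Log2 intensity of each recurrent line minus the mean of the 3 parental arrays (x axis) for 41 members grouped by role. Circles are AZD1208 lines, squares vehicle lines, black bars the mean of the 6 lines, and the dashed line the parental level; 38 bars lie left of it, and vehicle 1 is the lowest line for 27 members.

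Origin licensing loads the helicase onto DNA before S phase. The origin recognition complex (Orc1, Orc6) binds origins, and Cdc6 and Cdt1 bring in the MCM ring. Cdc6 was at 9.66, 9.39 and 9.95 in AZD1208 lines 1 to 3 and at 9.21, 10.12 and 10.31 in vehicle lines 1 to 3, against 10.65 ± 0.05 (technical SD, n = 3 arrays) in the parental line. All 6 lines were below all parental arrays, and the mean difference of -0.88 (SE 0.40) is a 1.84-fold lower level. Cdt1 was at 11.26, 10.83 and 11.49 in AZD1208 lines and 10.81, 11.30 and 11.66 in vehicle lines, against 11.88 ± 0.07 in the parental line (difference -0.65, SE 0.35). Orc1 was at 8.52, 8.40 and 8.55 in AZD1208 lines and 7.63, 8.84 and 8.98 in vehicle lines, against 9.16 ± 0.03 in the parental line (difference -0.68, SE 0.46). For each of the 3 genes vehicle 1 was lowest and vehicle 3 highest, and all lines were below the parental arrays. Orc6 did not share this: it was at 10.10, 9.87 and 9.57 in AZD1208 lines and 9.80, 9.90 and 9.99 in vehicle lines, against 9.87 ± 0.02, so that the lines lay on both sides of the parental level.

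The 6 subunits Mcm2 to Mcm7 form the ring that unwinds the double helix. All 6 had every recurrent line below the parental mean, with a median difference of -0.52. Mcm3 had the most negative difference of the members, -0.93 (SE 0.43), which is 1.9-fold lower. Its level was 10.72, 10.55 and 11.07 in AZD1208 lines and 10.02, 11.15 and 11.15 in vehicle lines, against 11.71 ± 0.10 in the parental line. Mcm2 was at 10.98, 10.78 and 11.52 in AZD1208 lines and 10.45, 11.52 and 11.58 in vehicle lines, against 11.90 ± 0.08 (difference -0.76, SE 0.45). For both genes AZD1208 1, AZD1208 2 and vehicle 1 lay lower than the other three lines. Mcm7 was at 12.05, 11.65 and 11.96 in AZD1208 lines and 11.48, 12.08 and 12.08 in vehicle lines, against 12.31 ± 0.02 (difference -0.43, SE 0.29). Mcm5 (-0.61), Mcm4 (-0.38) and Mcm6 (-0.32, or -0.20 without vehicle 1) completed the ring. Mcm4 ordered the lines differently from the rest of the ring: vehicle 1 was its highest line (11.60) and AZD1208 3 its lowest (10.98).

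**Figure D2:**
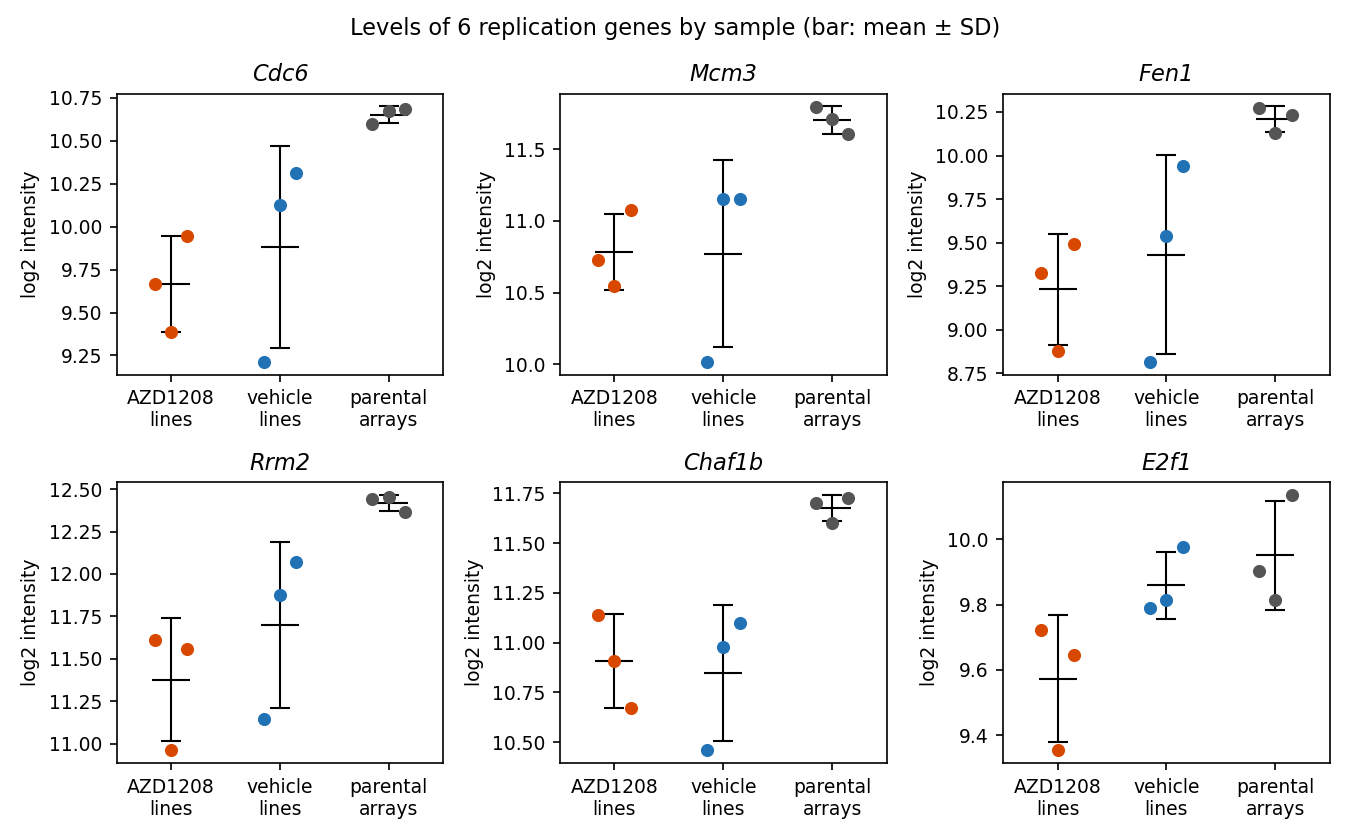
Log2 intensity (y axis, scaled per gene and not starting at 0) of Cdc6, Mcm3, Fen1, Rrm2, Chaf1b and E2f1 in the 3 AZD1208 lines, the 3 vehicle lines and the 3 technical arrays of the parental line, with mean and SD of each set. On the probe sets plotted, all recurrent lines of the first 5 genes lie below all parental arrays; for E2f1 the vehicle lines and parental arrays overlap and the AZD1208 lines lie below both.

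The loaded ring becomes an active helicase when Cdc45 and the GINS complex (Gins1 to Gins4) join it, a step that needs Mcm10. Gins1 was at 8.67, 8.33 and 8.23 in AZD1208 lines and 7.86, 8.92 and 8.79 in vehicle lines, against 9.21 ± 0.19 in the parental line (difference -0.74, SE 0.39). Mcm10 was at 8.92, 8.98 and 9.08 in AZD1208 lines and 8.43, 9.44 and 9.30 in vehicle lines, against 9.71 ± 0.02 (difference -0.68, SE 0.35). Both were below all parental arrays in 6 of 6 lines, with vehicle 1 lowest. Cdc45 was at 9.31, 9.30 and 8.89 in AZD1208 lines and 9.54, 9.18 and 9.39 in vehicle lines, against 9.70 ± 0.10 (difference -0.43, SE 0.24), and here vehicle 1 was the highest line. The GINS subunits, which act as one complex, differed in size of difference: Gins3 was at -0.30 with all lines below the parental mean, Gins2 at -0.14 with 5 lines below, and Gins4 at -0.06 with 3 lines below.

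DNA polymerase alpha with primase (Pola1, Pola2, Prim1, Prim2) starts each new strand, and polymerases delta (Pold1) and epsilon (Pole) extend it. Pola2 was at 10.63, 10.36 and 11.11 in AZD1208 lines and 10.09, 11.01 and 11.19 in vehicle lines, against 11.48 ± 0.05 in the parental line (difference -0.75, SE 0.43). Pold1 was at 9.28, 9.03 and 9.47 in AZD1208 lines and 9.05, 9.45 and 9.85 in vehicle lines, against 9.68 ± 0.13 (difference -0.33, SE 0.31). Prim1 was at 9.57, 9.06 and 8.93 in AZD1208 lines and 8.51, 9.59 and 9.89 in vehicle lines, against 9.75 ± 0.11 (difference -0.50, SE 0.49). Only Pola2 of these 3 had all lines below the parental level, since vehicle 3 lay above it for Pold1 and Prim1. Pole was at -0.36 with 4 lines below, and Prim2 at -0.22 with 6. A second, dim probe set of Pole gave -0.015. Without vehicle 1 the differences were -0.18 for Pole, -0.29 for Prim1 and -0.12 for Prim2. Pola1, the catalytic subunit of polymerase alpha, was at 9.76, 9.37 and 8.33 in AZD1208 lines and 9.20, 9.38 and 8.93 in vehicle lines, against 9.16 ± 0.24 in the parental line. Its mean difference was below 0.01 in size, with lines on both sides, while that of its partner Pola2 was -0.75.

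Pcna is the ring that clamps polymerases to DNA, the Rfc proteins load it, Fen1 and Lig1 trim and join Okazaki fragments, and Rpa2 coats single-stranded DNA. Fen1 was at 9.32, 8.88 and 9.50 in AZD1208 lines and 8.82, 9.54 and 9.94 in vehicle lines, against 10.21 ± 0.07 in the parental line, a difference of -0.88 (SE 0.41) or 1.84-fold. Lig1 was at 9.79, 9.89 and 10.33 in AZD1208 lines and 9.56, 10.37 and 10.44 in vehicle lines, against 10.71 ± 0.11 (difference -0.65, SE 0.36). Rfc5 was at 11.32, 10.90 and 11.25 in AZD1208 lines and 10.87, 11.31 and 11.46 in vehicle lines, against 11.61 ± 0.03 (difference -0.42, SE 0.27). Each of the 3 had every line below all parental arrays, again with vehicle 1 lowest and vehicle 3 highest. Rfc2 (-0.48), Rfc3 (-0.44) and Rpa2 (-0.38) were below the parental mean in 6 lines. Pcna, although a standard marker of proliferation, had the narrowest range over the 6 lines among the members, 0.34, and a difference of -0.10 (SE 0.21) with 4 lines below. A second probe set of Fen1, with a lower mean level, gave -0.37, in the same direction.

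Ribonucleotide reductase (Rrm1, Rrm2) makes deoxynucleotides, Tk1 and Tyms supply thymidine nucleotides, and Dut removes dUTP. Rrm2 was at 11.61, 10.96 and 11.56 in AZD1208 lines and 11.15, 11.88 and 12.07 in vehicle lines, against 12.42 ± 0.05 in the parental line, a difference of -0.88 (SE 0.38) or 1.84-fold. Its second, dimmer probe set gave -0.67, with vehicle 3 above the parental level (0.39) and the other lines below it. Tk1 was at 10.46, 9.78 and 9.98 in AZD1208 lines and 10.07, 9.90 and 10.26 in vehicle lines, against 10.58 ± 0.19 (difference -0.50, SE 0.28). Rrm1 was at 11.44, 12.03 and 11.90 in AZD1208 lines and 11.64, 12.11 and 12.15 in vehicle lines, against 12.37 ± 0.07 (difference -0.50, SE 0.29). The lowest line differed between these genes: AZD1208 2 for Rrm2 and Tk1, and AZD1208 1 for Rrm1. The other members of the group ran against the majority. Tyms was at 10.37, 10.24 and 10.33 in AZD1208 lines and 9.70, 10.46 and 10.65 in vehicle lines, against 10.21 ± 0.12 (difference 0.08, SE 0.33), with only vehicle 1 below the parental mean. Tyms also shares a probe set with its pseudogene, which was not used.

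Dut had the widest range over the 6 lines of the members, 2.25, and 1.71% of all genes tested had a wider one. It was at 11.16, 10.69 and 12.31 in AZD1208 lines and 10.35, 12.33 and 12.60 in vehicle lines, against 11.40 ± 0.06 in the parental line. AZD1208 3, vehicle 2 and vehicle 3 lay 0.92 to 1.21 above the parental level, and AZD1208 1, AZD1208 2 and vehicle 1 lay 0.23 to 1.05 below it. The second probe set of Dut showed the same 3 lines above the parental level (1.46, 2.09 and 2.51) and the same 3 below it (-0.16, -1.05 and -0.91), with the lines listed as in the sentence before. The mean difference of 0.18 (SE 0.85) therefore describes neither set of lines.

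Chaf1a and Chaf1b, subunits of the chromatin assembly factor, place histones on new DNA, and Uhrf1 guides maintenance methylation to it. Chaf1b was at 11.14, 10.91 and 10.67 in AZD1208 lines and 10.46, 10.98 and 11.10 in vehicle lines, against 11.68 ± 0.07 in the parental line. Even its highest line, AZD1208 1, lay 0.54 below the parental mean, and the difference of -0.80 (SE 0.29), or 1.74-fold, had the smallest unadjusted p of the members. Uhrf1 was at 10.59, 10.39 and 10.59 in AZD1208 lines and 9.88, 10.74 and 10.77 in vehicle lines, against 11.07 ± 0.05 (difference -0.58, SE 0.34). Chaf1a was at 9.85, 9.83 and 9.67 in AZD1208 lines and 9.52, 9.94 and 10.23 in vehicle lines, against 10.15 ± 0.08 (difference -0.31, SE 0.27), with vehicle 3 above the parental mean.

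Among the regulators, E2f1 and E2f2 are activating E2F factors, Ccne1 (cyclin E1) drives Cdk2 into S phase, and Cdc25a is a phosphatase that activates cyclin-dependent kinases. Cdc25a was at 9.33, 9.71 and 9.60 in AZD1208 lines and 8.51, 10.14 and 10.18 in vehicle lines, against 10.21 ± 0.15 in the parental line (difference -0.63, SE 0.58). Its difference rested much on vehicle 1, which lay 1.71 below the parental mean, and was -0.36 without that line. E2f2 was at 7.92, 7.39 and 8.31 in AZD1208 lines and 7.85, 8.06 and 8.47 in vehicle lines, against 8.43 ± 0.02 (difference -0.43, SE 0.36). E2f1 was at 9.72, 9.35 and 9.65 in AZD1208 lines and 9.79, 9.81 and 9.98 in vehicle lines, against 9.95 ± 0.17 (difference -0.23, SE 0.21), and its difference was -0.14 without parental array 3. Vehicle 3 lay above the parental mean for E2f1, E2f2 and Ccne1 (-0.22, SE 0.24), so that of this group only Cdc25a was below it in all 6 lines.

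The recurrent lines differed more among themselves in these genes than in the average gene. The median range over the 6 lines was 0.82 for the members, against 0.63 for all genes tested, and the median SD between vehicle lines was 0.40, against 0.19. Between AZD1208 lines the median SD was 0.24 for the members and 0.25 for all genes. The median member difference from the parental line was -0.39 in AZD1208 1, -0.66 in AZD1208 2 and -0.43 in AZD1208 3. In vehicle lines 1, 2 and 3 it was -0.85, -0.26 and -0.15. Over all genes tested the same medians lay between -0.05 and 0.04. Vehicle 1 was the lowest line for 27 of 41 members, against 16.4% of all genes. AZD1208 2 was lowest for 7 (20.9% of all genes), AZD1208 3 for 6 (24.3%) and AZD1208 1 for 1 (14.9%), and vehicle 2 (18.1%) and vehicle 3 (5.4%) for none. Vehicle 3 was the highest line for 30 members, against 22.3% of all genes. AZD1208 1 was highest for 5 (10.4%), vehicle 2 for 4 (10.3%) and vehicle 1 for 2 (11.7%), and AZD1208 2 (18%) and AZD1208 3 (27.3%) for none. Vehicle lines 1 and 3 thus held both ends of the spread, and the AZD1208 lines lay between them.

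**Figure D3:**
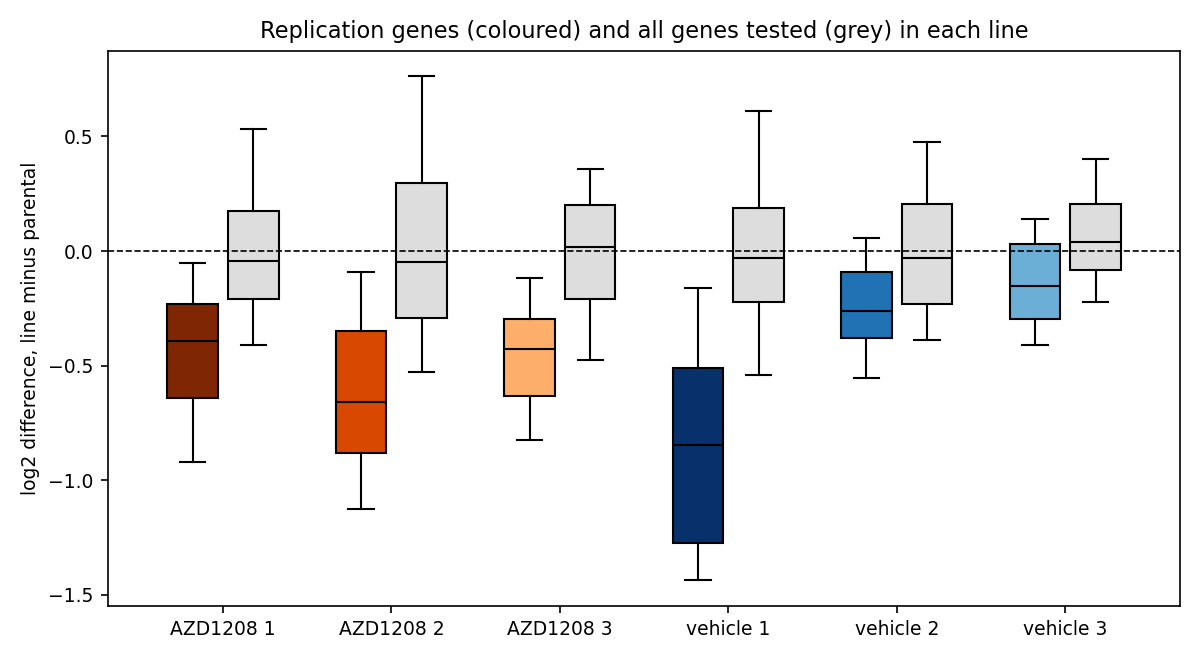
Log2 difference from the parental line (y axis) in each recurrent line, as box plots with the median, the quartiles and whiskers at the 10th and 90th percentiles. Coloured boxes are the 41 members and grey boxes all 15526 genes tested; the coloured median is lowest in vehicle 1 (-0.85) and nearest to 0 in vehicle 3 (-0.15).

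Single markers of cell type stood apart in the 2 lines with the lowest replication genes, vehicle 1 and AZD1208 2. Pdgfra, a receptor of fibroblasts and mesenchymal cells, was at 9.27, 9.84 and 8.24 in AZD1208 lines and 10.03, 9.06 and 8.47 in vehicle lines, against 7.47 in the parental line. It was highest in those 2 lines and lowest in AZD1208 3, so that it did not follow the order of the other lines. Cd68, a macrophage marker, was at 7.11, 8.08 and 7.24 in AZD1208 lines and 7.57, 7.39 and 7.24 in vehicle lines, against 7.04 in the parental line. The epithelial keratin Krt8 was at 10.44, 8.24 and 9.17 in AZD1208 lines and 8.53, 9.75 and 9.38 in vehicle lines, against 9.19 in the parental line. Cd68 was thus highest and Krt8 lowest in the same 2 lines, but other markers of the same kinds did not share this. The epithelial Cdh1 was highest of the recurrent lines in those 2 (6.96 in AZD1208 2 and 6.86 in vehicle 1). Csf1r, a leukocyte marker, was highest in AZD1208 3 (6.41), with 6.17 in AZD1208 2 and 6.15 in vehicle 1. The dim Adgre1, from the leukocyte list, was highest in vehicle 2 (6.54), with 5.72 in AZD1208 2 and 6.22 in vehicle 1. The fibroblast list as a whole, with 6 of 6 markers measured, averaged 6.65 to 6.98 in AZD1208 lines, 6.50 to 6.83 in vehicle lines and 6.42 to 6.49 in the parental arrays. Its defining collagen gene Col1a1 differed by -0.08 (SE 0.21), and Dcn and Lum were below the filter on dim genes, Dcn with its highest level, 6.68, in AZD1208 2. Leukocyte markers, with 5 of 6 measured, averaged 5.95 to 6.21, 6.07 to 6.25 and 6.02 to 6.04 in the same sets, and endothelial markers, with 5 of 5 measured, 5.59 to 5.81, 5.59 to 5.71 and 5.73 to 5.84. The part of other cells in the replication values was not tested.

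The AZD1208 lines and the vehicle lines were each compared with the same parental sample. In AZD1208 lines the median member difference was -0.51, with 40 of 41 members lower, where 53.7% of all genes were lower. All 3 AZD1208 lines were below the parental mean for 35 members, against 22% of all genes. In vehicle lines the median was -0.40, with 36 of 41 members lower, where 53.8% of all genes were lower, and all 3 lines were below for 27 members, against 26.3% of all genes. Without vehicle 1 the vehicle median was -0.18. Limma called 0 genes (0%) in either comparison. At an unadjusted p under 0.05 Rrm2 (difference -1.04) and Chaf1b (-0.77) were lower in AZD1208 lines, where 1.02% of all genes were. Chaf1b (-0.83) was lower at that threshold in vehicle lines, where 0.393% of all genes were (limma, adjusted p = 1 for each). The count of lower members at that threshold in AZD1208 lines was 13 without vehicle 1, 10 with array quality weights and 6 with the replicate block. It was 0 without AZD1208 2 or without vehicle 2. For these settings too the share of all genes past the threshold is not given here. In AZD1208 against parental 2 genes passed with the replicate block, neither a member.

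The second comparison set AZD1208 lines against vehicle lines, that is, lines grouped by what the castrated mice were given. Whether AZD1208 was present while the lines were grown is not stated here. No member differed between the groups beyond the threshold of the test. The median member difference was -0.08, against -0.02 over all genes, and 31 of 41 members were lower in AZD1208 lines, where 54.8% of all genes were. No gene passed (limma, 0%), and at an unadjusted p under 0.05 there were 0 members, while 0.361% of all genes were lower and 0.155% higher at that threshold.

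E2f1 had the smallest unadjusted p of the members. It averaged 9.57 ± 0.19 in AZD1208 lines and 9.86 ± 0.10 in vehicle lines (SD, n = 3 each), a difference of -0.29 (SE 0.16, adjusted p = 1, limma). Its highest AZD1208 line (9.72) lay below its lowest vehicle line (9.79), which held for 1 member in this direction and for 1.96% of all genes, and no member had the groups apart the other way, where 1.4% of genes did. Ccne1 averaged 9.25 ± 0.24 in AZD1208 lines and 9.50 ± 0.18 in vehicle lines (-0.25, SE 0.18), and Rrm2 11.38 ± 0.36 and 11.70 ± 0.49 (-0.32, SE 0.29). In the other direction Chaf1b differed by 0.06 (SE 0.22), Prim2 by 0.05 (SE 0.20) and Pcna by 0.04 (SE 0.16), all less than the SE itself. Which sign the median took depended on single vehicle lines. It was -0.32 without vehicle 1, with 40 members lower in AZD1208 lines, and 0.054 without vehicle 3, with 12 members lower. Without vehicle 1 the groups did not overlap for 24 members, where 12.8% of all genes had AZD1208 lower and apart. Under that setting 5 members passed an unadjusted p under 0.05, and the share of all genes that did is not given here. The lower differences shrank without AZD1208 2 for E2f1 (-0.18) and Rrm2 (-0.11), and without vehicle 3 for Ccne1 (-0.15).

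**Figure D4:**
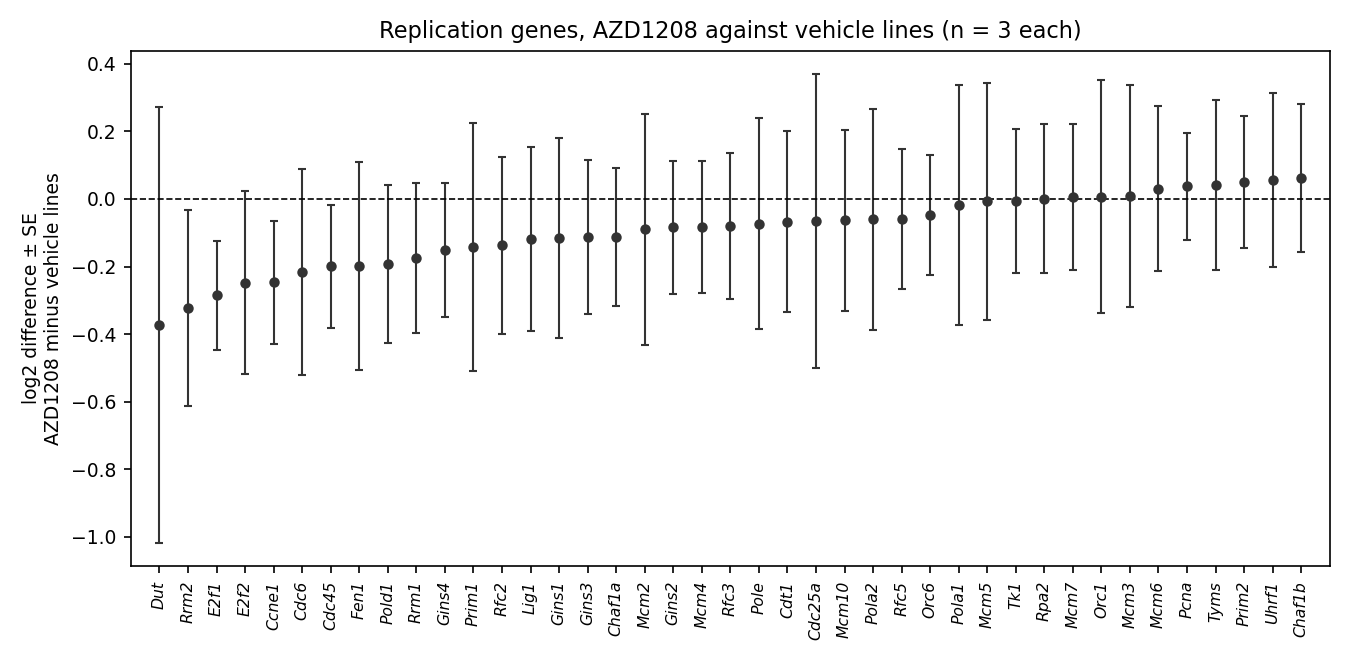
Log2 difference, AZD1208 minus vehicle lines, with its SE from limma (y axis) for the 41 members in order of the difference (x axis). E2f1 (-0.29, SE 0.16), Rrm2 (-0.32, SE 0.29) and Ccne1 (-0.25, SE 0.18) lie near the low end, and no member passed the test.

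Other genes of replication and of the E2F pathway, 60 listed and 56 tested, were read in the same fit. Of these, 42 were lower and 14 higher in recurrent lines, with a median difference of -0.27, where 54.7% of all genes tested were lower. All 6 lines were below the parental mean for 16 of them, where 10.9% of all genes were. None passed (limma, adjusted p = 1 for each gene named). Among 17 other replisome genes 15 were lower, including the fork protection gene Tipin (-0.67, SE 0.31) and the polymerase epsilon subunit Pole2 (-0.77, SE 0.42), while the large clamp loader subunit Rfc1 was at 0.16 (SE 0.36), or 0.023 without AZD1208 1. All 8 other S phase regulators were lower, led by Cdc25b (-0.54, SE 0.30) and the transcription factor Mybl2 (-1.04, SE 0.54), which is an E2F target itself. Mybl2 was at 10.58, 10.12 and 11.12 in AZD1208 lines and 10.02, 11.14 and 11.44 in vehicle lines, against 11.78 ± 0.04 in the parental line. On this probe set the order of lines was that of Mcm2, with vehicle 1 lowest and vehicle 3 highest. A second, dimmer probe set of Mybl2 had AZD1208 2 lowest (6.77, with 6.92 in vehicle 1). There vehicle 3 (8.49) lay within the range of the parental arrays, 8.04 to 8.52. Umps, an enzyme of pyrimidine synthesis, was at -0.68 (SE 0.27) with 6 of 6 lines below the parental arrays, and the p53-inducible reductase subunit Rrm2b at 0.21 (SE 0.29). The chromatin remodeller Hells was at -0.74 (SE 0.41).

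Origin and licensing genes outside the member list had a median difference near 0. Of 10, 4 were lower, against 54.7% of all genes tested, including Recql4 (-0.50, SE 0.44) and Ticrr (-0.43, SE 0.46), 6 were higher, the median was 0.02, and none was below the parental mean in all 6 lines. Ticrr was at -0.22 without vehicle 1. The lines differed: 10 of the 10 were below the parental mean in AZD1208 3 (median -0.35) and 8 in vehicle 1 (median -0.36), against 1 each in vehicle 2 and vehicle 3. The difference between this list and the members was not tested.

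The E2F factors, their DP partners and the pocket proteins were split. Of 10 tested, 6 were lower and 4 higher, a share of lower genes near the 54.7% among all genes tested. All 6 lines were above the parental mean for 2 of the 10, Rbl2 and Tfdp2, where 11.8% of all genes tested were. Rbl2, which encodes the pocket protein p130 that represses E2F targets in resting cells, was at 9.58, 9.16 and 9.07 in AZD1208 lines and 9.43, 9.27 and 9.20 in vehicle lines, against 8.62 ± 0.14 in the parental line. All 6 lines lay above all parental arrays, with a difference of 0.67 (SE 0.24, adjusted p = 1, limma), or 1.59-fold. Tfdp2, a DP partner of E2F factors, was at 10.17, 9.73 and 9.07 in AZD1208 lines and 10.59, 9.08 and 9.12 in vehicle lines, against 8.35 ± 0.14 (difference 1.27, SE 0.60, 2.42-fold). It too was above the parental arrays in all 6 lines. Its level was highest in vehicle 1, AZD1208 1 and AZD1208 2, the lines in which Mcm2 and Mcm3 were lowest. Over all members the order differed. The median member difference was -0.85 in vehicle 1, -0.66 in AZD1208 2, -0.43 in AZD1208 3 and -0.39 in AZD1208 1, while Tfdp2 was lowest in AZD1208 3. A relation between Tfdp2 and the members was not tested. Rb1, the retinoblastoma gene, was at 0.39 (SE 0.50) with AZD1208 3 below the parental mean, and its parental arrays had a technical SD of 0.36. Its difference was 0.62 without AZD1208 3 and 0.18 without parental array 3.

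**Figure D5:**
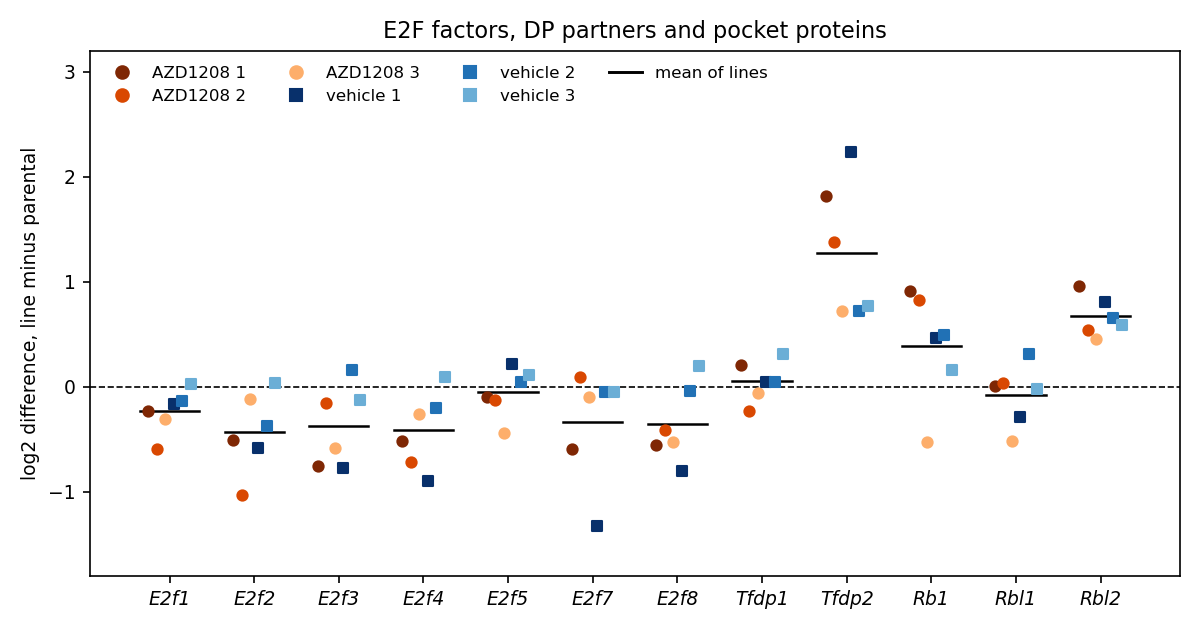
Log2 difference from the parental line (y axis) for E2F factors, DP partners and pocket proteins in each recurrent line; circles are AZD1208 lines, squares vehicle lines and black bars the mean of the 6 lines. Tfdp2 (mean 1.27) and Rbl2 (mean 0.67) lie above the parental level in all 6 lines, as 11.8% of all genes tested do.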

How the data were processed

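The log2 intensities, 1 per probe set and array, were used as the authors deposited them. The submitters' processing notes name oligo; which version, background correction, normalization and summary it applied is not stated there. Detection calls were not used, and differences of dim genes may come out too small. Precision is limited by the few arrays.

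Of 41345 probe sets, 23521 had 1 gene symbol in the platform annotation, 1814 had several and 16010 were not listed; only the first were named. Where several probe sets read a gene (1082 genes), the brightest by mean stood for it, which gave 22180 genes, and those with a mean of at least 5.82 (the upper 70%) were tested, 15526 in all. The 3 parental arrays were averaged. Limma 3.58.1 (R 4.3.3; lmFit, then eBayes) was run on 7 samples with a term for group alone, leaving 4 residual degrees of freedom, with Benjamini-Hochberg adjustment across every gene tested and a threshold of 0.05. The procedure was tested on simulated data. Alternatives included quantile normalization, median centring, array quality weights, other rules for dim genes and probe sets, parental arrays as separate samples, the replicate block and leaving out each line. P-values measure only the spread between these lines, and the lone parental sample is assumed to vary like them.

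The members and gene lists were chosen with earlier results of these data known. Values in every sample are given for up to 3 members of each role group with the smallest unadjusted p for recurrent against parental and for members against the majority (Orc6, Tyms and Dut), and in AZD1208 against vehicle for 3 members in each direction. From the other lists up to 2 genes of smallest p and genes against the majority are named; Pola1, Gins2 to Gins4, Mcm4 to Mcm6, Pole, Rfc2, Rfc3, Rpa2 and other members outside the rule were named after their values were seen. Promoter windows came from RefSeq on GRCm38.p6; the array's own build is not stated in the labels.

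Replicate numbers 1 to 3 occur in both the AZD1208 and the vehicle group. Across genes, the same-numbered lines' deviations from their group means correlated at 0.147, 0.119 and 0.531, each above 0.1, so a fit with the number as a block was set beside the results. No label says that the numbers pair the lines, and AZD1208 2 and vehicle 1 correlated at 0.263.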

Additional observations from a re-analysis of the deposited data

How the results depend on the processing

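Dbf4, Mcm8, Ezh2, Tfdp1, Asf1b, Dck and Gmnn, also picked from the other lists by the rule, were left out of the next count. Their direction under the alternatives is not given, and some lay near 0: Ezh2 (0.017), Mcm8 (0.027), Tfdp1 (0.053) and Dbf4 (-0.079). Of 54 genes followed for recurrent against parental, 49 kept their direction under all 17 alternatives and none passed the threshold in any. The exceptions were Orc6 (-0.011 with quantile normalization; -0.059 to 0.074 without single samples), Pola1 (0.22 with array quality weights; -0.15 to 0.21), Gins4 (-0.13 to 0.029), Tyms (-0.016 to 0.22) and Dut (-0.052 to 0.53). The median member difference lay between -0.51 and -0.36 without single samples. Members below the parental mean in all lines then numbered from 25 (without parental array 2) to 34 (without vehicle 3), where 12.5% and 16.6% of all genes were. They numbered 31 with quantile normalization (15.5% of all genes) and 27 without AZD1208 3 (22.3%), against 10.9% of all genes in the main fit.

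Counts of genes past the threshold changed with the treatment of the spread. With the parental arrays as 3 separate samples, which takes technical for biological spread, 156 genes passed for recurrent, 41 for AZD1208 and 53 for vehicle against parental, with 0 members among them. With array quality weights 1 and 2 passed for recurrent and for AZD1208 against parental, and without single samples 0 to 1 for AZD1208 against parental. With the replicate block 2 and 2 passed for those comparisons, and the block changed no other call.

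For AZD1208 against vehicle the median member difference ranged from -0.32 to 0.054 without single samples, with 12 to 40 members lower. Rrm2 ranged from -0.60 to -0.11, E2f1 from -0.36 to -0.18 and Ccne1 from -0.39 to -0.15, while Chaf1b ranged from -0.13 to 0.19, Prim2 from -0.14 to 0.16 and Pcna from -0.041 to 0.11. The E2F match count was 6 for TTTCCCGC alone and 7 for TTTGGCGC alone. The cause of these shifts was not tested.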

Other observations

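Vehicle 1 was the highest recurrent line for 2 members, Mcm4 and Cdc45, although it was the lowest for 27 of 41. AZD1208 3 was the lowest line for 23 of the 56 other replication and E2F pathway genes tested, against 24.3% of all genes and 6 of 41 members. Its level lay below the parental mean for 54 of those 56 genes, where 47.4% of all genes tested lay below it in that line. AZD1208 3 also had the narrowest interquartile range over genes (2.89) and the lowest array quality weight (0.34). Their part in this count was not tested. After Dut, the members with the widest range over the 6 lines were Cdc25a (1.68) and Pola1 (1.44), which 4.59% and 7.25% of all genes tested exceeded.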
